A study of Mus musculus with 12 samples.

Results

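The data describe 10 genes of the WNT pathway in mouse ear fibroblasts: the ligands Wnt5a and Wnt2, the receptors Fzd1 and Fzd2, the secreted antagonists Sfrp1, Sfrp2, Dkk2 and Dkk3, and the pathway target genes Axin2 and Lef1. They were taken by symbol from a list, and all 10 stood among the 33246 genes of the deposited count table. The cells came from ears of C57BL/6 mice aged 1 month, males and females, and were used at passage 2. In each sample 500000 cells were kept for 48 h on an alginate gel that carried RGD, the peptide to which the cells attach. The 4 groups of 3 samples are set apart by their gel: elastic (covalently crosslinked) or viscoelastic (ionically crosslinked, slow-relaxing), with a stiffness of 2 or 20 kPa. No group carried an engineered allele or received an added agent, and no sample from plastic or from fresh tissue was used here. The samples are described as biological replicates, but no source used here ties them to separate animals, so the p-values measure the spread between these samples, which may be partly technical.

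WNT proteins are secreted lipid-modified ligands that bind Frizzled receptors at the cell surface. In the β-catenin branch, a Frizzled and an LRP co-receptor stop the AXIN complex from destroying β-catenin, which then enters the nucleus and activates genes together with the DNA-binding factors of the TCF/LEF family. Axin2 is among the genes switched on in this way and encodes a scaffold that feeds back on the pathway, while Wnt5a mostly signals without β-catenin. SFRP proteins carry a Frizzled-like domain and bind WNTs outside the cell, and Dickkopf (DKK) proteins such as DKK2 act on the LRP co-receptors. In the dermis, fibroblasts make and receive WNT signals, and these take part in hair follicle formation and in fibrosis.

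Promoter sequences are shown for the 4 genes on which the results turn most and for which a sequence was at hand. They are the 250 bases before a RefSeq transcription start (GRCm38.p6), read 5′ to 3′ on the gene's strand, at chr3:83766071-83766320 (+) for Sfrp2, chr3:132085042-132085291 (+) for Dkk2, chr11:108920099-108920348 (+) for Axin2 and chr3:131156044-131156293 (+) for Lef1. Lef1 had 4 starts, and the one shown lies inside the gene. Of the 4 it is the only one whose window held any of the words searched. Capitals mark a word that TCF/LEF factors bind on either strand (the word CTTTGAA, the variant CTTTGAT, the variant CTTTGTA or the variant CTTTGTT) or a TATAAA on either strand. None of the searched words can overlap another of the 4 on the same strand, and TATAAA was chosen after the sequences were seen.
Sfrp2: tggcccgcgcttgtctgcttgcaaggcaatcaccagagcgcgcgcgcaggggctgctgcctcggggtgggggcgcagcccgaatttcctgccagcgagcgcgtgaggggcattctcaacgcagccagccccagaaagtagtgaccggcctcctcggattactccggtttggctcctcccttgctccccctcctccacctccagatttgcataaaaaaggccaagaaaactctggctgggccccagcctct
Dkk2: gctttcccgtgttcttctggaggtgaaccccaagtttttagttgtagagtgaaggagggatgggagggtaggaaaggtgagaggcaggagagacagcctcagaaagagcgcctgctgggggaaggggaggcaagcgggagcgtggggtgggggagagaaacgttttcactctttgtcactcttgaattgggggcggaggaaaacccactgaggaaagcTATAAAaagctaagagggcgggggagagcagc
Axin2: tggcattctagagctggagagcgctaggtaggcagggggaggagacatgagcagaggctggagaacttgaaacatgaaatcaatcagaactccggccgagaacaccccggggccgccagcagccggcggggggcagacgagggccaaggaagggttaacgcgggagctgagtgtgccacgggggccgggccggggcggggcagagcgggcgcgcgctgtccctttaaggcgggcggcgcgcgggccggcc
Lef1: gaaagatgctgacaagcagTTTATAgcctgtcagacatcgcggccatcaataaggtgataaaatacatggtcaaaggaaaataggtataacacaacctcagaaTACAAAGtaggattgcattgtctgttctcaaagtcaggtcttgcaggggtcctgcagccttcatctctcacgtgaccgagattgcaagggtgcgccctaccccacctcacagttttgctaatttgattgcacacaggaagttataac

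The words were searched in the whole 300-base windows, which run from 250 bases before to 50 bases after the start. Of all 32851 windows in the table, 16.9% held a TCF/LEF word and 13.6% held TATAAA. Windows were given for 6 of the 10 genes (Wnt2, Fzd1, Sfrp2, Dkk2, Axin2 and Lef1), and Lef1 had 4 of the 9. A TCF/LEF word was found in 1 of these 9 windows, that of a Lef1 start that lies inside the gene, where it begins 147 bases before the start. TATAAA began 32 bases before the start of Dkk2, 202 bases before that of Fzd1 and 231 bases before the Lef1 start inside the gene. The Axin2 window held 31 CpG dinucleotides and the Sfrp2 window 22, against 11 for Dkk2 and a median of 7 over all windows. A match is a description of these letters and not a bound site.

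Of the 10 genes, 9 could be judged, and Wnt2 could not. The deposited values are whole counts of reads per gene, and the total of a sample lay between 36626221 and 43612804. Wnt2 had 1, 1 and 3 counts on 2-kPa elastic gels, 7, 1 and 2 on 2-kPa viscoelastic gels, 5, 4 and 2 on 20-kPa elastic gels and 1, 7 and 3 on 20-kPa viscoelastic gels. It failed the expression filter and was not tested, so no difference in Wnt2 was detectable at this depth. Axin2 passed with 127 to 243 counts per sample, and its mean of 177 lay just under 178 counts, below which counting noise exceeds the typical spread between replicates in these libraries. Dkk2 had 109 to 530 counts and the other 7 genes had at least 831 in each sample. On 2-kPa elastic gels Dkk2 had 223, 135 and 109 counts, of which 135 and 109 also lay under 178.

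Levels are given below as TMM-normalized CPM, that is counts scaled to a common library size. Between genes they were compared only per kilobase of exon, as means over the 12 samples. On that scale Dkk3 was highest with 139 CPM per kb, followed by Sfrp1 with 78.3, Fzd1 with 48.0, Fzd2 with 30.5, Sfrp2 with 28.7 and Wnt5a with 14.1. Lef1 (2.83 CPM per kb), Dkk2 (1.90) and Axin2 (0.777) were low. The order turned for pairs of neighbours in single groups: Sfrp2 stood above Fzd2 on viscoelastic gels, with 36.7 against 30.8 CPM per kb at 2 kPa and 36.9 against 31.2 at 20 kPa, and Dkk2 above Lef1 on 20-kPa elastic gels, with 3.05 against 2.50. Per kilobase, the mRNA of Dkk3, Sfrp1 and Sfrp2 was thus more abundant than that of Wnt5a, Axin2 and Lef1, while that of Dkk2 was less abundant than that of Wnt5a. Reads alone cannot tell less RNA per cell from fewer cells that make it.

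**Figure D1:**
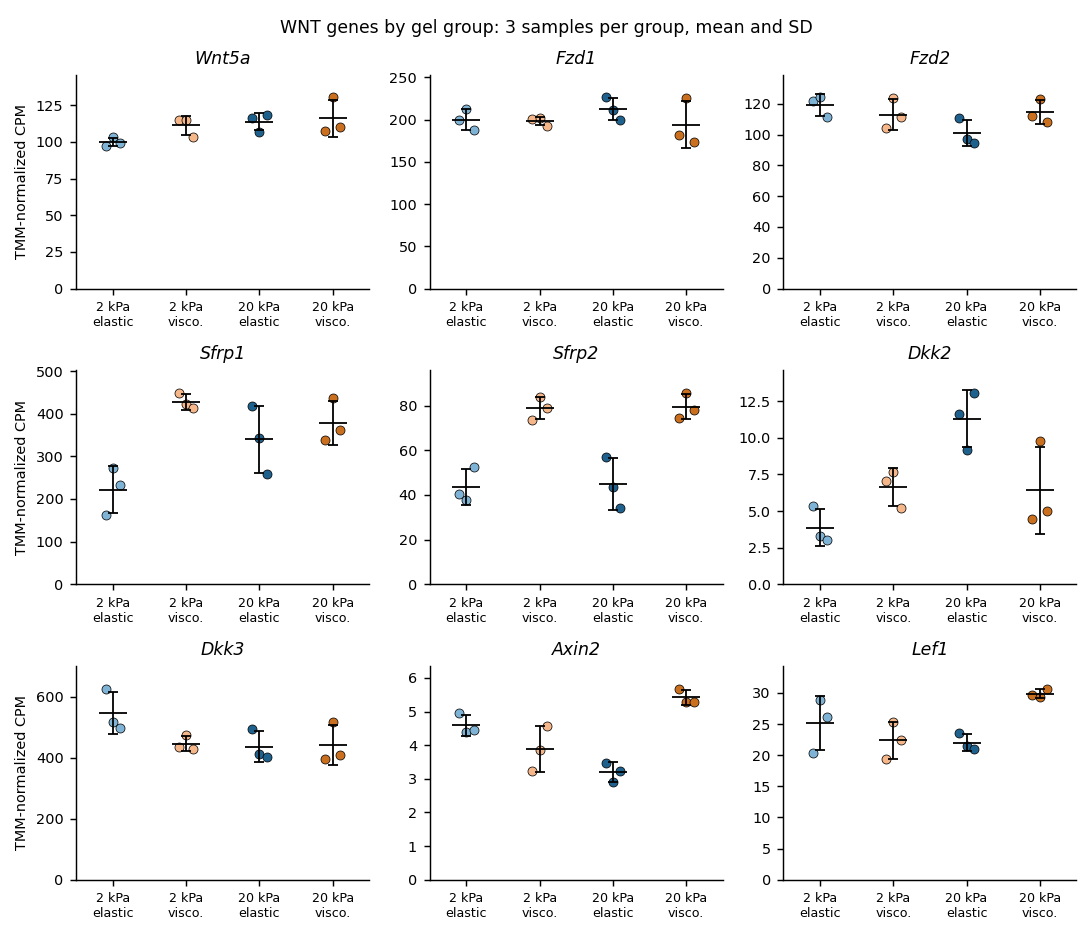
Levels of the 9 tested WNT genes in TMM-normalized CPM (linear axes from 0) on the 4 gels, with 1 point per sample, a bar for the mean and whiskers for 1 SD (n = 3). Sfrp2 separates both viscoelastic groups from both elastic groups, Dkk2 is highest on 20-kPa elastic gels, and Axin2 and Lef1 are highest on 20-kPa viscoelastic gels.

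The ligand Wnt5a (chr14:28504750-28527448, + strand) was present at an almost even level. It measured 97.4, 103 and 99.2 CPM on 2-kPa elastic gels, 115, 115 and 104 on 2-kPa viscoelastic gels, 116, 107 and 118 on 20-kPa elastic gels and 108, 130 and 110 on 20-kPa viscoelastic gels. The 3 samples on 2-kPa elastic gels were the lowest of all 12. In log2 units the difference between viscoelastic and elastic gels was 0.15 (95% CI -0.0036 to 0.31) at 2 kPa and 0.03 (-0.13 to 0.19) at 20 kPa, with edgeR adjusted p of 0.155 and 0.798. Stiffness gave 0.19 (0.03 to 0.35) on elastic gels and 0.06 (-0.10 to 0.22) on viscoelastic gels, and neither passed the test (edgeR adjusted p = 0.107 and 0.701). Between the ends of its order, 20-kPa viscoelastic against 2-kPa elastic gels, Wnt5a was higher by 0.22 ± 0.07 (SE, edgeR adjusted p = 0.0378). An antisense gene model, Gm2670, shares 358 exon bases with Wnt5a, and since the strand setting of the counting is not stated, reads of the pair cannot be told apart there. Neither Gm2670 nor the antisense models named below for other genes are listed by name in the count table.

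The receptors did not pass the test in any comparison. Fzd1 (chr5:4753839-4758035, − strand) averaged 200 ± 12.3 CPM (SD, n = 3 here and below) on 2-kPa elastic, 199 ± 4.90 on 2-kPa viscoelastic, 213 ± 13.2 on 20-kPa elastic and 194 ± 28.0 on 20-kPa viscoelastic gels. All pairs of its groups overlapped, and its 95% intervals for the comparisons of gel type and of stiffness lay between -0.31 and 0.27 in log2 units. Fzd2 (chr11:102604396-102608058, + strand) averaged 119 ± 7.0, 113 ± 9.96, 101 ± 8.41 and 114 ± 7.78 CPM in the same order of gels. It was lowest on 20-kPa elastic gels, where its samples measured 110, 97.3 and 94.8 CPM, all below the 122, 124 and 111 CPM on 2-kPa elastic gels. That difference of -0.24 ± 0.08 (SE) in log2 units gave an edgeR adjusted p of 0.0577, and DESeq2 gave 0.0444. It was called without 2-kPa viscoelastic replicate 1 (edgeR adjusted p = 0.0427) or 2 (0.0318), 20-kPa elastic replicate 1 (0.0330) or 20-kPa viscoelastic replicate 2 (0.0476), and without 20-kPa elastic replicate 1 so was the difference between gel types at 20 kPa (0.0423).

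Both SFRP antagonists were higher on viscoelastic gels, Sfrp2 at both stiffnesses and Sfrp1 at 2 kPa. Sfrp2 (chr3:83766321-83774316, + strand) measured 40.2, 37.7 and 52.6 CPM on 2-kPa elastic gels and 73.8, 84.1 and 79.1 on 2-kPa viscoelastic gels. On 20-kPa gels it measured 57.1, 43.4 and 34.2 CPM when they were elastic and 74.7, 85.7 and 78.2 when they were viscoelastic. All 6 viscoelastic samples stood above all 6 elastic samples. The log2 difference was 0.86 ± 0.15 (SE) at 2 kPa, or 1.82-fold (edgeR adjusted p = 0.00118), and 0.82 ± 0.15 at 20 kPa, or 1.77-fold (edgeR adjusted p = 0.000835). Stiffness moved Sfrp2 by 0.05 (95% CI -0.27 to 0.36) on elastic and by 0.01 (-0.30 to 0.32) on viscoelastic gels. Its call at either stiffness was kept when any single library was left out. The antisense model Gm26771 shares 347 exon bases with Sfrp2.

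Sfrp1 (chr8:23411502-23449632, + strand) stood out by its low level on 2-kPa elastic gels. There it measured 162, 272 and 232 CPM, against 449, 424 and 413 on 2-kPa viscoelastic, 417, 342 and 260 on 20-kPa elastic and 338, 437 and 361 on 20-kPa viscoelastic gels. Every sample on 2-kPa viscoelastic gels exceeded every sample on 2-kPa elastic gels, and the log2 difference of 0.95 ± 0.17 (SE), or 1.93-fold, passed the test (edgeR adjusted p = 0.00175). At 20 kPa the groups overlapped, with a difference of 0.16 (95% CI -0.21 to 0.52, edgeR adjusted p = 0.507). Sfrp1 rose by 0.61 ± 0.17 with stiffness on elastic gels (edgeR adjusted p = 0.0267), although the groups overlapped. Without 2-kPa elastic replicate 1 this rise was 0.43 and not called (adjusted p = 0.112), and it was not called without replicate 3 of that group (0.0596) or without 20-kPa elastic replicate 1 (0.0940) or 2 (0.0651) either. The stiffness effect on viscoelastic gels, -0.18 (95% CI -0.54 to 0.18), differed from that on elastic gels by -0.79 ± 0.24, which missed the threshold (edgeR adjusted p = 0.0592). It passed without 2-kPa elastic replicate 2 (0.0282), 20-kPa elastic replicate 3 (0.0205) or 20-kPa viscoelastic replicate 2 (0.0417).

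Dkk2, which encodes a secreted ligand of LRP co-receptors, rose with stiffness on elastic gels and showed the widest span of group means among the 9 genes, 2.92-fold from lowest to highest. Dkk2 (chr3:132085292-132180304, + strand) measured 5.31, 3.31 and 2.99 CPM on 2-kPa elastic and 11.7, 9.19 and 13.1 on 20-kPa elastic gels. These groups did not overlap, and the rise of 1.54 ± 0.27 (SE) in log2 units, or 2.90-fold, passed the test (edgeR adjusted p = 0.00193). On viscoelastic gels it measured 7.03, 7.66 and 5.18 CPM at 2 kPa and 4.42, 9.82 and 5.02 at 20 kPa, where replicate 2 stood apart from the other 2 samples. Stiffness moved it there by -0.04 (95% CI -0.61 to 0.52), and the 2 stiffness effects differed by -1.58 ± 0.38 (edgeR adjusted p = 0.0205). At 20 kPa Dkk2 was lower on viscoelastic gels by 0.81 on the log2 scale (-0.81 ± 0.26, edgeR adjusted p = 0.0249), and at 2 kPa the difference of 0.77 ± 0.28 missed the threshold (0.0661).

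The lower Dkk2 on viscoelastic gels of 20 kPa was the least stable of these calls. It was lost with DESeq2 (adjusted p = 0.0502) and without 20-kPa elastic replicate 3 (edgeR adjusted p = 0.0937), 20-kPa viscoelastic replicate 1 (0.104) or 20-kPa viscoelastic replicate 3 (0.103). The difference between its stiffness effects was lost without 2-kPa elastic replicate 2 (0.0524) or 3 (0.0526) or without 20-kPa viscoelastic replicate 3 (0.0546). The difference between gel types at 2 kPa was called without 2-kPa elastic replicate 1 (0.0408) or 20-kPa viscoelastic replicate 2 (0.0154). The rise of Dkk2 on elastic gels was called in all 21 alternatives, with an adjusted p of at most 0.0127.

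Dkk3 (chr7:112116017-112159057, − strand), a divergent Dickkopf gene and the most abundant of the 10, was highest on 2-kPa elastic gels. It measured 627, 518 and 499 CPM there, 436, 473 and 429 on 2-kPa viscoelastic, 494, 411 and 403 on 20-kPa elastic and 396, 518 and 411 on 20-kPa viscoelastic gels. The 2-kPa elastic samples lay above those of 2-kPa viscoelastic and of 20-kPa elastic gels without overlap. In the main test neither difference was called: -0.30 ± 0.11 (SE) for viscoelastic against elastic gels at 2 kPa (edgeR adjusted p = 0.0727) and -0.33 ± 0.11 for stiffness on elastic gels (0.0627). DESeq2 called both (adjusted p = 0.0443 and 0.0349), edgeR called both without 20-kPa viscoelastic replicate 2 (0.0371 and 0.0295), and it called the stiffness effect without 20-kPa elastic replicate 1 (0.0349). On the stiffer gels the 2 types differed by 0.02 (95% CI -0.22 to 0.25).

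Axin2 and Lef1 were both lowest on 20-kPa elastic gels and highest on 20-kPa viscoelastic gels. Axin2 (chr11:108920349-108950783, + strand) measured 4.95, 4.38 and 4.45 CPM on 2-kPa elastic, 3.22, 3.87 and 4.58 on 2-kPa viscoelastic, 3.48, 2.90 and 3.23 on 20-kPa elastic and 5.69, 5.30 and 5.29 on 20-kPa viscoelastic gels. All 3 samples on 20-kPa viscoelastic gels were above the other 9. At 20 kPa Axin2 was higher on viscoelastic gels by 0.76 ± 0.13 (SE) in log2 units, or 1.69-fold (edgeR adjusted p = 0.000576), whereas at 2 kPa the difference was -0.24 (95% CI -0.51 to 0.03). On elastic gels it fell by 0.52 on the log2 scale with stiffness (edgeR adjusted p = 0.0156), and on viscoelastic gels the difference was 0.48 ± 0.13 (0.0573). The stiffness effect thus differed between the gel types by 1.00 ± 0.18 (edgeR adjusted p = 0.00357), a difference that was called in all 20 alternatives.

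By mean count over the samples, counting noise weighed on Axin2 more than on the other tested genes. The fall of Axin2 on elastic gels was not called without 2-kPa elastic replicate 1 (-0.46, edgeR adjusted p = 0.0695) or 20-kPa elastic replicate 2 (-0.45, 0.0664). Its difference with stiffness on viscoelastic gels was called without 2-kPa viscoelastic replicate 3 (0.0365). The antisense model Gm11670 shares 209 exon bases with Axin2, so that a part of its few reads cannot be assigned to a strand.

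Lef1 (chr3:131110471-131224356, + strand) encodes a TCF/LEF factor and measured 20.4, 28.9 and 26.2 CPM on 2-kPa elastic, 19.4, 25.3 and 22.4 on 2-kPa viscoelastic, 23.6, 21.4 and 21.0 on 20-kPa elastic and 29.6, 29.3 and 30.7 on 20-kPa viscoelastic gels. The 20-kPa viscoelastic samples were again the 3 highest of the 12, and they varied least. Lef1 was higher on viscoelastic than on elastic gels of 20 kPa by 0.44 ± 0.11 (SE) in log2 units, or 1.36-fold (edgeR adjusted p = 0.00737). At 2 kPa the difference was -0.17 (95% CI -0.41 to 0.07). The stiffness effect was -0.19 ± 0.11 on elastic gels (edgeR adjusted p = 0.277) and 0.42 ± 0.11 on viscoelastic gels (0.0604), and the difference between them, 0.61 ± 0.16, was called (edgeR adjusted p = 0.0293). That call was lost on leaving out any of 7 libraries: 2-kPa elastic replicate 2 or 3, 2-kPa viscoelastic replicate 1, 20-kPa elastic replicate 2 or 3 and 20-kPa viscoelastic replicate 1 or 3, with adjusted p between 0.0559 and 0.0732. The stiffness effect on viscoelastic gels was called without 2-kPa elastic replicate 1 (0.0346) or 2-kPa viscoelastic replicate 2 (0.0443). The antisense model Gm43352 shares 1208 exon bases with Lef1.

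Lef1 and Dkk2 both lie on chromosome 3, 860935 bases apart, and Sfrp2 lies on the same chromosome 47336154 bases before Lef1. Other genes between them were not looked up. At 20 kPa Lef1 and Dkk2 moved in opposite directions between the gel types.

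**Figure D2:**
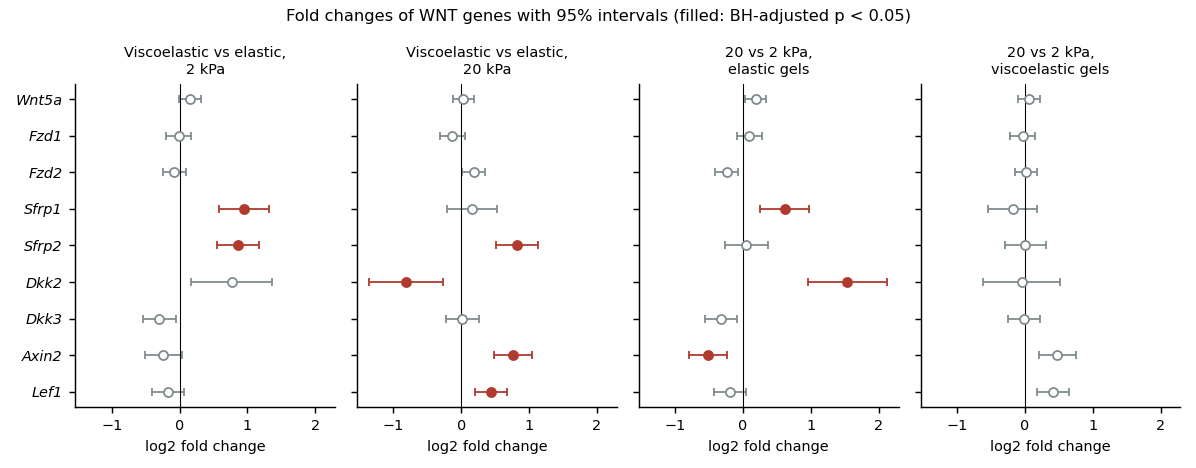
Log2 fold changes of the 9 tested WNT genes (horizontal axes) with 95% intervals from the edgeR fit, in 1 panel for each of 4 comparisons, with filled red points for an adjusted p under 0.05 and open grey points otherwise. Filled points number 2, 4, 3 and 0 from the left panel to the right one.

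Counted over the genes, viscoelastic against elastic gels at 2 kPa gave 2 calls among the 9 tested (Sfrp1 and Sfrp2, both higher), where 19.9% of all 14542 tested genes were called, 8.77% as higher and 11.1% as lower. At 20 kPa 4 of 9 were called, Axin2, Lef1 and Sfrp2 higher and Dkk2 lower, where 33.5% of all genes were called, 17.4% as higher and 16.1% as lower. The comparison of 20 with 2 kPa on elastic gels gave 3 of 9 calls, Dkk2 and Sfrp1 higher and Axin2 lower, beside 14.0% of all genes, 6.81% higher and 7.14% lower. On viscoelastic gels stiffness gave 0 of 9 calls with edgeR, beside 2.28% of all genes, 1.58% higher and 0.695% lower. There 2 genes, Axin2 and Lef1, had an unadjusted p under 0.05, and DESeq2 called these 2 (adjusted p = 0.0251 and 0.0174). The difference between the stiffness effects on the 2 gel types was called for 3 of 9 genes (Axin2 and Lef1 positive, Dkk2 negative), beside 7.56% of all genes, 4.45% positive and 3.12% negative.

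The share of the 9 genes called at 2 kPa was near that of all genes, and with so few genes the other shares are given as counts only. The median absolute log2 difference of the 9 was 0.24 for viscoelastic against elastic gels at 2 kPa, where it was 0.15 over all genes, and 0.18 against 0.19 at 20 kPa. For stiffness it was 0.24 against 0.13 on elastic gels and 0.04 against 0.11 on viscoelastic gels. The comparisons share groups of samples, so their counts are not independent of each other.

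In the order of the 4 group means, few neighbours differed. Because the order was set by these same means, neighbours lie close by construction, and few calls among them are no separate result. The pairs of groups that differ in both stiffness and gel type were tested for this order alone. Between 20-kPa viscoelastic and 2-kPa elastic gels 4 of 9 genes were called (Wnt5a, Sfrp1 and Sfrp2 higher, Dkk3 lower), beside 31.4% of all genes, and between 20-kPa elastic and 2-kPa viscoelastic gels 2 of 9 (Dkk2 higher, Sfrp2 lower), beside 22.8% of all genes. Of 27 pairs of neighbouring groups over the 9 genes, 3 were called: Sfrp1 between 2-kPa elastic and 20-kPa elastic gels, Sfrp2 between 20-kPa elastic and 2-kPa viscoelastic gels (edgeR adjusted p = 0.00168), and Dkk2 between 2-kPa viscoelastic and 20-kPa elastic gels (0.0428). For Axin2 and Lef1 the order was the same, 20-kPa elastic, 2-kPa viscoelastic, 2-kPa elastic and 20-kPa viscoelastic gels from low to high, and no neighbouring pair in it was called although its ends were. The highest group mean was 1.93 times the lowest for Sfrp1, 1.83 for Sfrp2, 1.69 for Axin2 and 1.36 for Lef1, and at most 1.26 for Dkk3, Fzd2, Wnt5a and Fzd1.

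Within a group, a single library often held the highest value of several of these genes. Replicate 2 held the highest value of its group for 7 of the 9 genes on 20-kPa viscoelastic gels and for 7 on 2-kPa viscoelastic gels, and replicate 1 did so for 7 on 20-kPa elastic gels. Without 20-kPa viscoelastic replicate 2 the counts of called genes rose from 3 to 5 for stiffness on elastic gels and from 2 to 4 for gel type at 2 kPa, and Fzd1 was called lower on viscoelastic gels of 20 kPa (-0.25, edgeR adjusted p = 0.0189). For stiffness on elastic gels 1 call was left without 2-kPa elastic replicate 1 or without 20-kPa elastic replicate 2, and for the difference between stiffness effects 1 was left without 2-kPa elastic replicate 3 or without 20-kPa viscoelastic replicate 3. Calls over all genes moved the same way as these counts, but not as the call of Fzd1. Without 20-kPa viscoelastic replicate 2 they rose from 2029 to 2143 for stiffness on elastic gels and from 2892 to 3048 for gel type at 2 kPa. Between gel types at 20 kPa, where Fzd1 was called, they fell from 4866 to 3693 without that library. Those for stiffness on elastic gels fell to 1167 and 1439 without the 2 libraries named for it, and those for the difference fell from 1100 to 833 and 749.

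**Figure D3:**
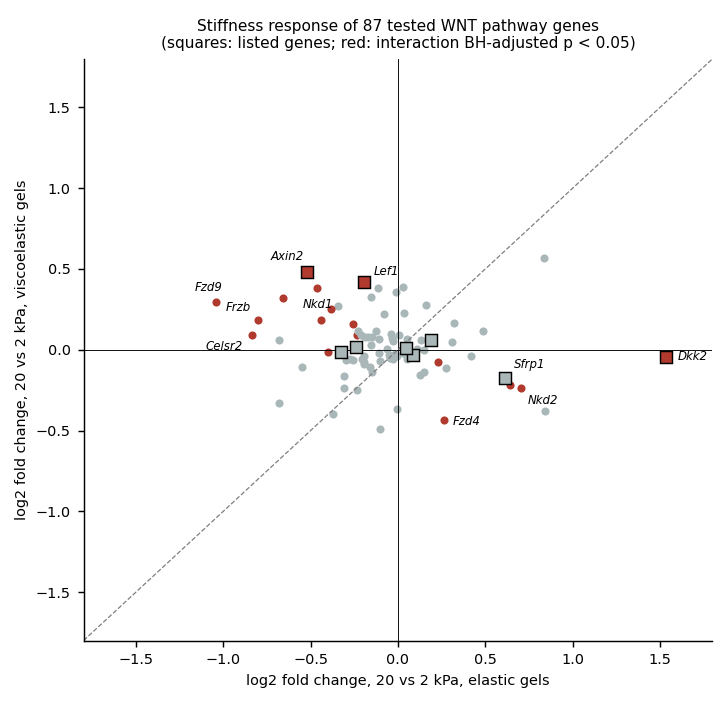
Log2 fold change from 2 to 20 kPa on elastic gels (horizontal axis) and on viscoelastic gels (vertical axis) for the 87 tested genes of a wider WNT list, with squares for the 9 tested genes described above, red for an adjusted p under 0.05 of the difference between the axes, and a dashed line where both are equal. Dkk2 lies far to the right at 1.54 and -0.04, and Axin2 lies to the upper left at -0.52 and 0.48.

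A wider list of 108 genes that encode WNT ligands, receptors, regulators and common targets was read beside the 10, which it includes. Of these, 87 were expressed highly enough to be tested, among them 9 of 19 ligands. Viscoelastic against elastic gels at 2 kPa gave 27 calls, 7 higher and 20 lower (31.0% of the 87, beside the 19.9% of all genes). At 20 kPa there were 35 calls, 20 higher and 15 lower (40.2%, beside 33.5%). Stiffness gave 21 on elastic gels, 8 higher and 13 lower (24.1%, beside 14.0%), and 3 on viscoelastic gels (3.45%, beside 2.28%). The difference between the stiffness effects was called for 17, of which 12 were positive and 5 negative (19.5%, beside 7.56%). These calls fell to 11 without 2-kPa elastic replicate 3 or 20-kPa viscoelastic replicate 1 and to 10 without 20-kPa viscoelastic replicate 3, and those between gel types at 20 kPa fell to 23 without 20-kPa elastic replicate 3. Calls over all genes fell along with them, from 1100 to 833, 727 and 749 for the difference and from 4866 to 3177 at 20 kPa. The median absolute log2 difference over the 87 genes was 0.20, 0.21, 0.19, 0.09 and 0.24 in these 5 comparisons, against 0.15, 0.19, 0.13, 0.11 and 0.16 over all tested genes.

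**Figure D4:**
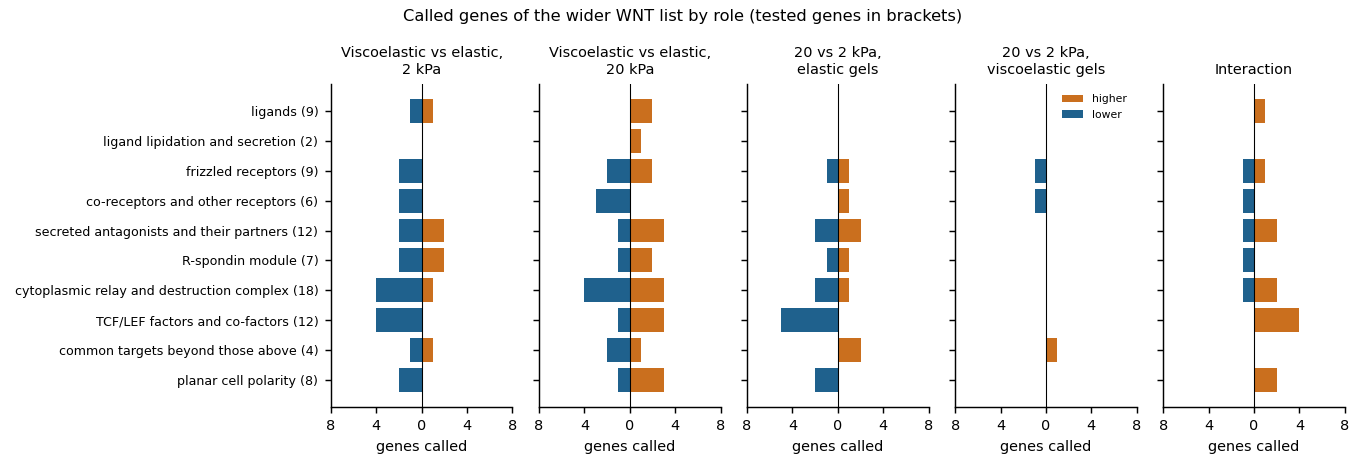
Number of called genes (edgeR adjusted p under 0.05) of the wider WNT list by role, with those higher to the right in orange and those lower to the left in blue, in 1 panel for each of 5 comparisons. Of the 12 tested TCF/LEF factors and co-factors, 4 were lower on viscoelastic gels at 2 kPa, beside 11.1% of all genes. With stiffness on elastic gels 5 were lower, beside 7.14%, and between gel types at 20 kPa 3 were higher and 1 lower, beside 17.4% and 16.1%. Other roles had calls too: of 7 R-spondin module genes 2 were higher and 2 lower at 2 kPa, beside 8.77% and 11.1%. At 20 kPa 3 of 6 co-receptors and other receptors were lower and 0 higher, beside 16.1% and 17.4%. No test compared the roles.

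Among the genes of the wider list other than the 10, the differences with the lowest adjusted p between gel types at 2 kPa were in Nkd2, Rspo1 and Wnt16, which were higher on viscoelastic gels, and in Fzd9, Vangl1 and Celsr2, which were lower. Nkd2, which encodes a Dishevelled-binding protein, rose from 8.79 ± 0.404 to 14.5 ± 0.0822 CPM (edgeR adjusted p = 2.3e-05). Rspo1, a secreted enhancer of WNT signalling, rose from 0.881 ± 0.0728 to 2.07 ± 0.138 CPM (0.000209), and the ligand gene Wnt16 from 15.3 ± 3.05 to 25.1 ± 0.990 CPM (0.00438). The receptor gene Fzd9 fell from 92.2 ± 3.89 to 49.7 ± 7.89 CPM (edgeR adjusted p = 2.3e-05). The planar cell polarity genes Vangl1 and Celsr2 fell from 86.8 ± 8.37 to 59.3 ± 2.67 CPM (8.98e-05) and from 9.68 ± 0.790 to 5.24 ± 1.23 CPM (0.000533). By role, 2 of 12 secreted antagonists and partners were higher and 2 lower, and of 12 TCF/LEF factors and co-factors 4 were lower and 0 higher, beside 8.77% higher and 11.1% lower of all genes. At 20 kPa the TCF/LEF role had 3 higher and 1 lower, beside 17.4% and 16.1%, and no test compared the roles.

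At 20 kPa the pathway feedback gene Nkd1 moved as Axin2 and Lef1 did. Nkd1 was at 1.85 ± 0.409 CPM on elastic and 4.23 ± 0.110 CPM on viscoelastic gels (log2 difference 1.19 ± 0.17 (SE), edgeR adjusted p = 0.000199). Daam2, a formin gene, was at 56.4 ± 8.64 and 98.2 ± 4.02 CPM (0.000227), and Pygo1, which encodes a nuclear co-factor of β-catenin, at 20.0 ± 2.52 and 29.2 ± 1.99 CPM (0.000317). Lower on viscoelastic gels were the target gene Ccn4, with 52.9 ± 6.81 CPM on elastic and 36.1 ± 0.887 CPM on viscoelastic gels (edgeR adjusted p = 0.000255), the co-repressor gene Tle4 with 3.15 ± 0.131 and 2.12 ± 0.183 CPM (0.00335), and Ror2, a receptor gene for Wnt5a, with 27.9 ± 1.23 and 21.2 ± 1.95 CPM (0.00345). Of the 4 tested genes listed as common WNT targets beyond those in other roles, 1 was higher and 2 were lower, beside 17.4% higher and 16.1% lower of all genes, too few genes to describe WNT targets as a group.

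With stiffness on elastic gels, Nkd2 rose to 14.3 ± 0.929 CPM (edgeR adjusted p = 3.6e-05), and the target genes Ccnd1, for cyclin D1, and Myc rose from 164 ± 7.88 to 231 ± 40.9 CPM (0.0103) and from 48.9 ± 1.93 to 60.5 ± 6.24 CPM (0.0112). Fzd9 fell to 44.8 ± 0.378 CPM (edgeR adjusted p = 1.3e-05). The R-spondin receptor gene Lgr4 fell from 132 ± 6.94 to 82.6 ± 8.66 CPM (0.000264), and the secreted antagonist gene Frzb from 188 ± 19.1 to 108 ± 15.1 CPM (0.000330). Frzb, an SFRP relative, therefore moved opposite to Sfrp1 and Dkk2 in this comparison. Its mean on viscoelastic gels was 134 ± 18.7 CPM at 2 kPa, below that on elastic gels, and 153 ± 8.10 CPM at 20 kPa, above it. On viscoelastic gels 3 genes were called with stiffness: Twist1 rose from 79.1 ± 1.40 to 95.8 ± 4.14 CPM (edgeR adjusted p = 0.0391), and the receptor genes Ror1 and Fzd4 fell from 8.86 ± 0.0614 to 6.31 ± 0.305 CPM (0.0253) and from 63.8 ± 6.27 to 47.2 ± 0.540 CPM (0.0387).

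The stiffness effects on the 2 gel types differed in either direction among the wider list, as they did for Axin2, Lef1 and Dkk2. Viscoelastic minus elastic, the difference was positive for Fzd9 (1.34 ± 0.13 (SE) in log2 units, edgeR adjusted p = 3.6e-05), Frzb (0.98 ± 0.15, 0.00143) and Pygo1 (0.62 ± 0.12, 0.00475). It was negative for Nkd2 (-0.94 ± 0.10, edgeR adjusted p = 8.1e-05), Fzd4 (-0.70 ± 0.14, 0.00806) and Rspo1 (-0.86 ± 0.23, 0.0324). The paralogs Nkd1 and Nkd2 stood on opposite sides, since Nkd1 had a difference of 0.85 (edgeR adjusted p = 0.0414).

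Among all tested genes outside the 10, the following had the profile over the 12 samples most like that of a listed gene, by Pearson r of log2 CPM, which is given as a description. For Sfrp1 it was Lmcd1 (r = 0.99), for Sfrp2 Rab13 (0.99), for Fzd2 B3gnt9 (0.98) and for Axin2 Hadh (0.95). For Wnt5a it was Ebf2 (0.93), for Dkk2 Atp6v0e2 (0.93), for Fzd1 Tgfbr3 (0.90) and for Lef1 Hs3st3b1 (0.88). Ebf2 and Atp6v0e2 were low, with group means of 0.17 to 0.44 and 0.75 to 1.74 CPM, so counting noise weighs on their profiles. The samples share their groups and, within a library, their depth, and the best match was sought among all 14542 tested genes.

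Markers of the labelled cell type were abundant, with a summed level of 23723 to 29260 CPM for 9 fibroblast genes. The keratinocyte, endothelial, leukocyte, Schwann cell, skeletal muscle, adipocyte and melanocyte lists each summed to at most 9.01 CPM in a sample. Of the 5 cartilage markers, however, Col2a1 (2839 CPM on average), Acan (1139), Sox9 (440) and Col9a1 (269) were high, while Matn1 had 0 to 8 counts per sample. The cartilage list summed to 4372 to 5577 CPM on 2-kPa elastic, 4217 to 5333 on 2-kPa viscoelastic, 3972 to 4067 on 20-kPa elastic and 4085 to 5412 on 20-kPa viscoelastic gels. Over the 5 comparisons Col9a1 was called in the same ones and in the same directions as Axin2: -0.69 with stiffness on elastic gels (edgeR adjusted p = 0.00496), 0.87 for viscoelastic against elastic gels at 20 kPa (0.000441) and 1.01 for the difference between the stiffness effects (0.00589). Lum, a fibroblast marker, was called in the same comparisons and directions (-0.66, 0.70 and 1.09, edgeR adjusted p = 0.00544, 0.00140 and 0.00297), and Thy1, another one, in the opposite directions (0.47, -0.53 and -0.62, 0.00447, 0.000837 and 0.0109). Of the 9 fibroblast markers 4 were higher and 1 lower on viscoelastic gels at 20 kPa, beside 17.4% and 16.1% of all genes. At 20 kPa Acan, Sox9 and Col2a1 differed by -0.01, 0.06 and 0.32 between the gel types and were not called. Acan was lower on 2-kPa viscoelastic than on 2-kPa elastic gels (-0.47, 0.00847) and fell with stiffness on elastic gels (-0.50, 0.00767). Between gel types at 2 kPa Col2a1, Sox9 and Col9a1 were not called (0.007, 0.010 and -0.15). With stiffness on elastic gels Col2a1 (-0.29) and Sox9 (-0.24) were not called either. The endothelial list summed to 1.98 to 2.20 CPM on 2-kPa elastic, 2.88 to 3.51 on 2-kPa viscoelastic and 2.99 to 3.27 on 20-kPa elastic gels. Of its markers, 2 of 4 (Tek and Kdr) were called higher on 2-kPa viscoelastic and on 20-kPa elastic gels than on 2-kPa elastic gels. Of all genes, 8.77% and 6.81% were called higher in these comparisons. Tek had 26 to 84 and Kdr 16 to 51 counts per sample. The other 2, Pecam1 and Cdh5, were not called and differed by -0.54 and -0.66 in log2 units for gel type at 2 kPa and -0.08 and 0.29 for stiffness on elastic gels. The part of cartilage-like or other cells in the WNT gene results was not tested.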

How the data were processed

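Polyadenylated RNA of 12 samples was sequenced. After trimming (Trimmomatic) and alignment to mm10 (STAR), the authors obtained raw counts per gene from featureCounts with a GENCODE annotation, and these were deposited without normalization. The annotation release, the strand setting and the treatment of reads with several matches are not given in the sources used here. The other assays of the study were not analysed here.

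Groups followed the sample titles. The test was edgeR's quasi-likelihood test (version 4.0.16, R 4.3.3). Genes were kept by filterByExpr (minimum count 10, minimum total 15) and libraries were scaled by TMM, and each group had its own coefficient in a single fit over all 12 samples. This left 14542 genes, and Benjamini-Hochberg adjusted p-values over these were called under 0.05. Typical spread between replicates beyond counting was 7.50% (biological coefficient of variation). The 5 comparisons were gel type at each stiffness, stiffness on each gel type and the difference between the stiffness effects, viscoelastic minus elastic. The other pairs of groups served only for the order of levels. Standard errors and 95% intervals came from the same fit. A gene that failed the filter was held too low to judge. The fit was tested on simulated data.

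The 10 genes and all lists were chosen with earlier results of these data known. From the genes of the wider list other than the 10, up to 3 called genes higher and 3 lower with the lowest adjusted p and a mean of at least 1 CPM were named in each comparison, and for each tested gene of the 10 the gene with the most similar profile was named. Positions and exon lengths came from a GENCODE annotation of mm10 and promoter windows from RefSeq (GRCm38.p6). Wnt5a, Fzd2, Sfrp1 and Dkk3 had no window. Alternatives were DESeq2 1.42.0, its size factors, total counts alone, other expression filters, an adjusted p under 0.01, only the groups compared, an offset for exon length and GC content (known for 94.9% of tested genes), a replicate block, and leaving out each library. The nearest profile match of 1 listed gene is not reported here.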

Additional observations from a re-analysis of the deposited data

Results flagged for a closer look

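For 3 of the 9 tested WNT genes the effect of stiffness differed between the gel types by a direct test of that difference, which 7.56% of all 14542 tested genes passed. They are drawn to attention because an effect in 1 gel type differed from the effect in the other, and no explanation was weighed. The effect on viscoelastic minus that on elastic gels was 1.00 for Axin2, 0.61 for Lef1 and -1.58 for Dkk2 in log2 units (edgeR adjusted p = 0.00357, 0.0293 and 0.0205). The call of Lef1 was lost on leaving out any of 7 libraries (adjusted p between 0.0559 and 0.0732) and that of Dkk2 on leaving out 2-kPa elastic replicate 2 or 3 or 20-kPa viscoelastic replicate 3 (0.0524, 0.0526 and 0.0546), while that of Axin2 held without each single library. Axin2 fell with stiffness on elastic gels, from 4.59 ± 0.311 to 3.20 ± 0.292 CPM (SD, n = 3), and on viscoelastic gels measured 3.89 ± 0.678 CPM at 2 kPa and 5.43 ± 0.226 CPM at 20 kPa. Lef1 measured 25.2 ± 4.36 and 22.0 ± 1.38 CPM on elastic gels and 22.4 ± 2.96 and 29.9 ± 0.750 CPM on viscoelastic gels, at 2 and 20 kPa. Dkk2 rose on elastic gels from 3.87 ± 1.26 to 11.3 ± 1.96 CPM and measured 6.62 ± 1.29 and 6.42 ± 2.96 CPM on viscoelastic gels. Groups of 3 samples are too small for a test of outlying samples.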

How the results depend on the processing

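Depth left Wnt2 untested, Axin2 near the counting limit and samples of Dkk2 on 2-kPa elastic gels below it. The calls of Sfrp2 and of Axin2 and Lef1 between gel types at 20 kPa, of Sfrp1 and Sfrp2 at 2 kPa, of Dkk2 with stiffness on elastic gels and of Axin2 for the difference between stiffness effects held in every alternative run. Causes of the changes below were not tested. The calls among the 9 genes for stiffness on elastic gels went from 3 to 5 with DESeq2, 5 with every gene kept, 6 with only the groups compared and 1 at an adjusted p under 0.01. For stiffness on viscoelastic gels they went from 0 to 2 with DESeq2, 2 with every gene kept and 1 with the length and GC offset. They went from 2 to 4 for gel type at 2 kPa with every gene kept, and from 3 to 1 for the difference between stiffness effects at an adjusted p under 0.01. In the wider list, an adjusted p under 0.01 left 17, 21, 10, 0 and 7 calls (gel type at 2 and 20 kPa, stiffness on elastic and viscoelastic gels, difference). Its 3 calls for stiffness on viscoelastic gels became 6 with DESeq2, 10 with every gene kept and 0 with only the groups compared. Leaving out 1 library gave 2 to 4, 3 to 5, 1 to 5, 0 to 1 and 1 to 4 calls among the 9 genes and 19 to 33, 23 to 38, 14 to 24, 0 to 4 and 10 to 17 in the wider list, in the same order of comparisons. Of 18 pairs of same-numbered samples, 2 had deviations that correlated over 0.1 (-0.20 to 0.31). Both lay between the 2-kPa and 20-kPa viscoelastic groups, with 0.18 for replicate 1 and 0.31 for replicate 2. Samples with different numbers were not compared, so whether the numbers pair the samples cannot be told from this. A replicate block changed no call among the 9 genes and left 1 call for stiffness on viscoelastic gels in the wider list, and 0 with the length and GC offset added, a fit that also called Dkk3 for gel type at 2 kPa and for stiffness on elastic gels (adjusted p = 0.0492 in each). The log2 differences that changed sign had not been called. They were -0.029 and -0.027 for Dkk3 between gel types at 20 kPa (length and GC offset, without and with the replicate block), 0.0086, 0.029, 0.047 and 0.049 for Fzd1 between gel types at 2 kPa (at least 1 CPM, total counts alone, and the offset without and with the block), and -0.035, -0.035 and -0.0066 for Sfrp2 with stiffness on viscoelastic gels (the same offsets, and only the groups compared). Without 1 library, differences that could change sign ranged as follows: with stiffness on viscoelastic gels Dkk2 -0.49 to 0.17, Dkk3 -0.14 to 0.057, Fzd1 -0.16 to 0.041, Fzd2 -0.038 to 0.088, Sfrp2 -0.047 to 0.056 and Wnt5a -0.030 to 0.11, with stiffness on elastic gels Sfrp2 -0.15 to 0.21, between gel types at 20 kPa Dkk3 -0.11 to 0.10, Sfrp1 -0.0037 to 0.32 and Wnt5a -0.064 to 0.079, between gel types at 2 kPa Fzd1 -0.054 to 0.035, and for the difference between stiffness effects Sfrp2 -0.20 to 0.15. No scaling moved the median of all genes by over 0.1 on the log2 scale.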
